A study of Mus musculus with 4 samples.

Results

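ATP-binding cassette (ABC) transporter genes were followed through messenger RNA sequencing of mouse haematopoietic stem cells, the rare self-renewing marrow cells from which every blood lineage descends. The family was taken as every row whose gene name, or a comma-separated part of it, starts with Abc, a subfamily letter from a to g and a digit. This rule found 50 genes among 34315 features, with 16 in subfamily A, 10 in B, 10 in C, 4 in D, 1 in E, 3 in F and 6 in G. The rule uses names alone and no measured value, but it was chosen with earlier results of these data known.

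The cells came fresh from the marrow of C57BL/6 mice by a sort that combines dye efflux (the side population, SP) with the KSL-CD150+ surface phenotype. The 4 libraries are wild type and are labelled as technical replicates of a first biological replicate, although the design text of the series speaks of duplicates, so spread between them is not spread between mice. HSCs labelled Dnmt3a-KO, without the DNA methyltransferase Dnmt3a and sorted in the same way, are seen here only as summaries: for each feature the authors' deposited table gives their mean count, with a log2 fold change and adjusted p. The sources used here give neither the age of the mice nor the Cre line or promoter behind the deletion.

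ABC proteins couple the binding and hydrolysis of ATP to the movement of molecules across a membrane. A working pump has a pair of ATP-binding domains, which either sit in a single long protein (a full transporter) or come together when a pair of shorter proteins (short, single-domain transporters) join. Subfamilies A and G move mainly lipids and sterols, B holds the multidrug pump and the mitochondrial exporters, C holds the conjugate and drug exporters, and D works in the peroxisome and lysosome. Subfamilies E and F have ATP-binding domains but cross no membrane and act in translation. Abcg2 is the short transporter that exports the DNA-binding dye by which side population cells are sorted, so the cells examined here were gated in part on the activity of a protein of this family.

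Library totals ran from 40709659 to 47408552 counts, and counts were divided by size factors of 0.951, 0.955, 1.048 and 1.065 to give normalised counts. Libraries 1 and 2 differed by little more than counting noise over all features, as did libraries 3 and 4, with a median chi-square of 0.763 and 0.682 per feature, while the lowest median between the pairs was 12.0. Each pair was therefore averaged and counted as 1 sample. The 10 stem cell markers were all measured, and none was at 0 or called. Their summed level was 144110 to 181683 normalised counts in the wild-type libraries and 149883 in the knockout arm. That sum hides values on both sides. Hlf averaged 28976 and 40042 in the wild-type pairs and 9511 in the knockout arm, and Procr 2964 and 4894 against 21292. The 10 markers that the sort should leave out summed to 2958 to 3321 in wild type and 804 in the knockout arm, of which Cd3e and Ms4a1 were at 0 in the knockout arm. Dnmt3a, the targeted gene, stood at 8229, 8569, 5400.1 and 5208 normalised counts in the 4 libraries and 8424 in the knockout arm. Where a deletion leaves the rest of the transcript in place, such a total says nothing on the label.

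The sorted samples held transcripts of most of the family, at widely different levels. They are bulk samples that also hold transcripts of neutrophil markers, so a low level cannot be assigned to the stem cells alone. A gene was called measured where the mean of both arms reached 10 normalised counts, and 34 of the 50 genes passed. All 34 also reached 10 in wild type alone, and 32 reached it in the knockout arm alone. Together the 50 genes took 0.277%, 0.279%, 0.250% and 0.250% of all counts in libraries 1 to 4. The Wilson 95% interval of the first share was 0.276% to 0.279%, and this interval, like the others given, describes counting error alone because reads copied by PCR are not separate molecules.

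Levels between genes were compared per kb of exon. The highest was Abce1, a ribosome recycling factor (chromosome 8, 82207341 to 82235639, mm9), at 2959, 2882, 3175 and 3112 normalised counts per kb in libraries 1 to 4. Abcf1, a translation initiation factor of subfamily F (chromosome 17, 36093764 to 36106695), followed at 2612, 2747, 2644 and 2602. The leading members of the family were thus proteins that do not transport. The other subfamily F members, Abcf2 and Abcf3, averaged 1409 and 847 normalised counts per kb in wild type.

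The highest transporters per kb were Abca2, Abcg2 and Abcc1. Abca2, an endosomal and lysosomal lipid transporter (chromosome 2, 25284194 to 25304059), averaged 2496 normalised counts per kb in the first library pair (1 and 2) and 1686 in the second (3 and 4). Abcg2 stood at 1663 and 2449 on the same scale, so the order of Abca2 and Abcg2 was reversed between the pairs and the genes cannot be ranked. Abcc1, an exporter of glutathione conjugates such as leukotriene C4 (chromosome 16, 14361651 to 14474971), was steady at 1828 and 1786. Its span shares 1.25% of its length with an antisense feature that averaged 2164 normalised counts in wild type. Reads of the shared stretch cannot be told apart here, so the level of Abcc1 may include some of them. These 5 genes were the only members at or above the 90th percentile of all features with reads. The 10 highest members also included Abcf2, the sterol exporter Abcg1, the lipid transporter Abca7 and Abcg3, a rodent relative of Abcg2.

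**Figure D1:**
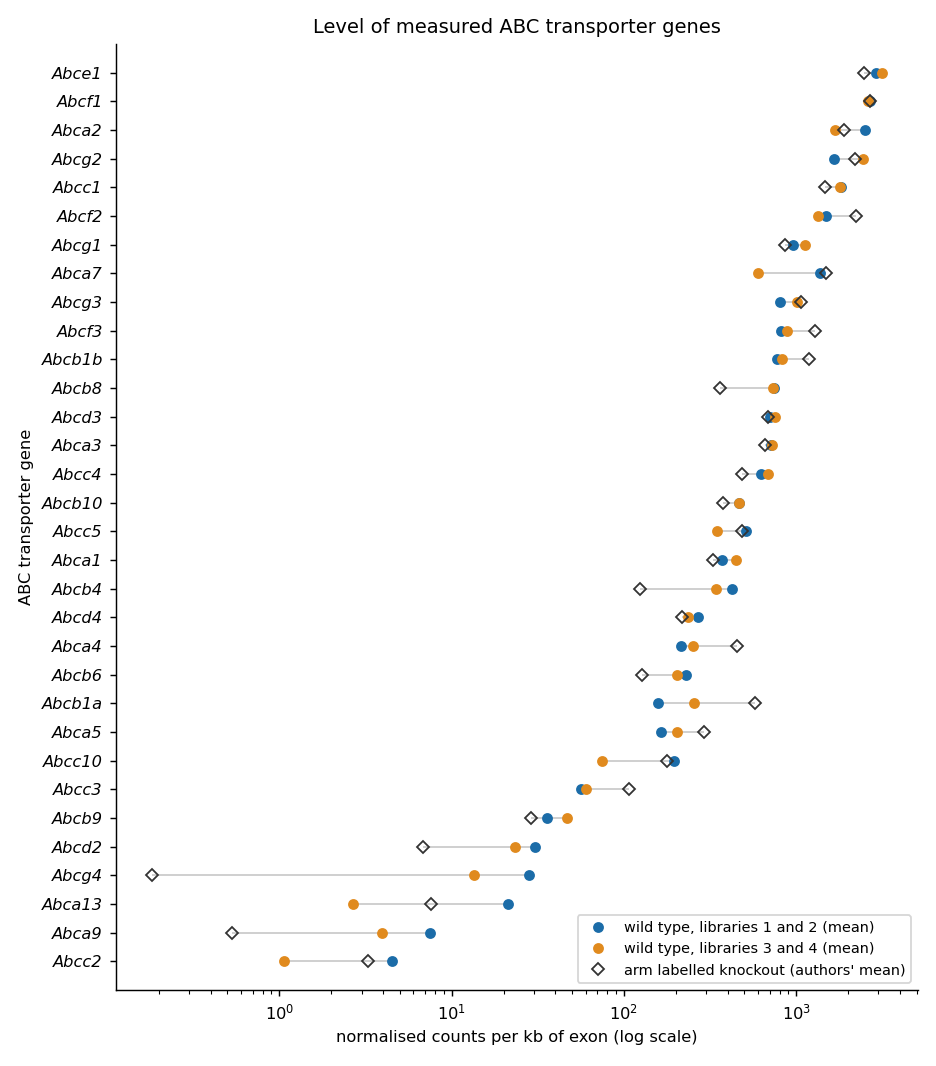
Levels of 32 of the 34 measured ABC transporter genes, in normalised counts per kb of exon on a log axis, with 1 row for each gene. Filled points are means of the wild-type library pairs and open diamonds are the authors' mean of the arm labelled knockout on the wild-type scale; the rows run from Abce1, at a wild-type mean of 3032, down to Abcc2, at 2.78.

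At the low end, 5 genes had no read in any wild-type library. They were Abca14, Abca16, Abcc6, Abcc12 and Abcg5, and 0 reads allows up to 0.0737 CPM in the shallowest library and 0.0633 CPM in the deepest, taking 3 counts as the limit. Another 5 had 1 to 3 reads over all 4 libraries: Abca12, Abca15, Abcb11, Abcb5 and Abcg8. Several of these are known from specialised tissues, such as the bile salt pump Abcb11 and the sterol exporter pair Abcg5 and Abcg8 of liver and gut, and Abca12 of skin. The other unmeasured genes, with more reads, were Abca6, Abca8a, Abca8b, Abca17, Abcc8 and Abcc9, the last a subunit of potassium channels whose span overlaps an antisense feature.

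More of the short than of the long genes were measured. The longest coding sequence of each gene in GENCODE vM21, matched by symbol for all 50, ran from 599 to 842 codons in 19 genes and from 1255 to 5034 codons in 31. Of the 19 short genes, 17 were measured, with a median of 754 normalised counts per kb in wild type. Those 19 include Abce1 and the 3 genes of subfamily F, which do not transport, so a short gene here is not always a short transporter. Of the 31 long genes, the full transporters, 17 were measured, with a median of 383. The short genes that were not measured were Abcg5 and Abcg8. Size largely follows subfamily, since all 16 genes of A and all 10 of C are long and all genes of D to G are short. Subfamily B holds both sizes, and 5 of its 5 short genes and 3 of its 5 long genes were measured.

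Neighbouring genes often differed. On chromosome 11, 5 subfamily A genes lie between 109794720 and 110199030 (mm9): Abca8b, Abca8a, Abca9, Abca6 and Abca5. Abca5, a lysosomal member at one end of the row, averaged 184 normalised counts per kb in wild type, whereas the other 4 lay between 0.963 and 5.72. On chromosome 5, Abcb1a, Abcb1b and Abcb4 lie between 8660092 and 8959226, at 206, 801 and 383 normalised counts per kb. Abcb1a and Abcb1b encode the 2 rodent forms of P-glycoprotein, the multidrug pump, and Abcb4 moves phosphatidylcholine into bile. The sequences of Abcb1a and Abcb1b are alike, so the split of reads between them is uncertain, as it is for Abca8a and Abca8b.

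The promoters of measured and unmeasured members differed in their content of CpG, the dinucleotide that DNA methyltransferases modify, as did those of features in general. Sequences of the 250 bases before each gene's start were taken from RefSeq (GRCm38.p6), which held 38 of the 50 symbols. For 33 of them a start was found from which the gene runs as far as its span in the authors' table, to within 250 bases, and that start was used. A promoter was called CpG-rich at a CpG observed over expected of at least 0.6 with at least 50% G and C. Of 23 measured genes, 17 were CpG-rich (73.9%), and of 10 unmeasured genes 2 were, Abca14 and Abca15. The same shares over all features matched in this way were 61.9% of 8848 measured and 11.4% of 5453 unmeasured ones. The GC box GGGCGG, searched on both strands, stood in the windows of 14 of the 23 and 1 of the 10, against 59.7% and 17.8% of all features. The family therefore had shares near those of the whole table, and no test was made.

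**Figure D2:**
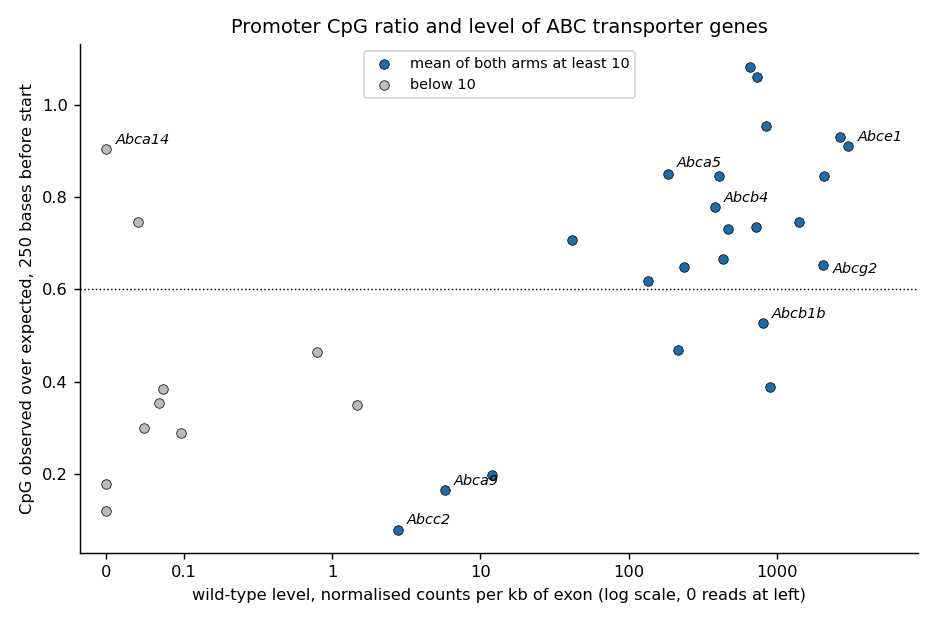
CpG observed over expected in the 250 bases before the start (vertical axis) against the wild-type level in normalised counts per kb of exon (log axis, genes without a read at the far left) for 33 ABC transporter genes. Of the 23 measured genes, 17 lie above the dotted line at 0.6, and the unmeasured genes above it are Abca14 and Abca15.

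Promoters that show how far CpG content varies among measured members, within 1 gene and between neighbours, are given here 5′ to 3′ on the strand of the gene, in lower case with each CpG in capitals. The first pair belongs to Abcg2, which has 3 RefSeq starts. The farthest upstream of these has 3 CpG, does not match the span counted here and is not printed. In the printed pair, the upstream one matches the start of that span and has 10 CpG. The downstream one lies inside the span and has 23. Reads of transcripts from both are pooled in the count.

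Abcg2 upstream (chr6:58596422-58596671, plus strand): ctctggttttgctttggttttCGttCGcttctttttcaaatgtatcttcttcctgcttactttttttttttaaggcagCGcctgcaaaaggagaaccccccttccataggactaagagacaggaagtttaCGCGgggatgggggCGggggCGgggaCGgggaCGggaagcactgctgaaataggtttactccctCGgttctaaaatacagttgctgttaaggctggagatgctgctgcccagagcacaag
Abcg2 downstream (chr6:58640296-58640545, plus strand): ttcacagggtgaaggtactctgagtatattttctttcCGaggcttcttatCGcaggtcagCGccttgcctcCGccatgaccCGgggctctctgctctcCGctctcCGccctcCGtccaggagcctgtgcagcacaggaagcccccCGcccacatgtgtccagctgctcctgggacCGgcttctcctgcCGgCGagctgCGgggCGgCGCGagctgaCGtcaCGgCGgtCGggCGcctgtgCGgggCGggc

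The second pair compares neighbours on chromosome 11, Abca5 with 25 CpG and Abca9 with 2.

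Abca5 (chr11:110337717-110337966, minus strand): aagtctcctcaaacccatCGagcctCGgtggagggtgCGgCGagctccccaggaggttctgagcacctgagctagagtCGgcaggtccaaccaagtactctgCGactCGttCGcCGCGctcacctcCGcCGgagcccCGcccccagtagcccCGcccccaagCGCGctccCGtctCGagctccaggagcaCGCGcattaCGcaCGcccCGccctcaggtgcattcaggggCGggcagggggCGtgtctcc
Abca9 (chr11:110168154-110168403, minus strand): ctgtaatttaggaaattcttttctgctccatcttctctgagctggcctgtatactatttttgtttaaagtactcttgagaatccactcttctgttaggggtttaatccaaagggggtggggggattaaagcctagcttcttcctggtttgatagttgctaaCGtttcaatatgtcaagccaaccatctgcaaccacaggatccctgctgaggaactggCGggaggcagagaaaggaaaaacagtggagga

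The third compares neighbours on chromosome 5, Abcb1b with 9 CpG and Abcb4 with 18. In this pair the gene with fewer CpG had the higher level, 801 against 383 normalised counts per kb in wild type, unlike Abca5 and Abca9. The coordinates printed with these sequences are those of GRCm38.p6, and all gene positions elsewhere are those of mm9.

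Abcb1b (chr5:8797897-8798146, plus strand): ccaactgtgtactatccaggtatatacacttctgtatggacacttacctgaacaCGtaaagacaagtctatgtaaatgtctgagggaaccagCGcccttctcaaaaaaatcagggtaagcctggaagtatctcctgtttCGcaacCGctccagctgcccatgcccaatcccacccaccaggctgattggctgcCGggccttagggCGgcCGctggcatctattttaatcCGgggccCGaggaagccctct
Abcb4 (chr5:8893471-8893720, plus strand): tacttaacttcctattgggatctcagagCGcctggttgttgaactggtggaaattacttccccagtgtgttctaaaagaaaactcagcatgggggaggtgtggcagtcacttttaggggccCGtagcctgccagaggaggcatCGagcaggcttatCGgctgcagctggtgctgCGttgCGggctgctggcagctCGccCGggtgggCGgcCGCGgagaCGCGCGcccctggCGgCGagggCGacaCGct

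The second question is which of these transcripts differ in cells labelled as lacking Dnmt3a, and few of the family were called. These p-values rest on libraries labelled, for wild type, as technical replicates, so by that label they hold no wild-type spread between mice. They also did not always follow a gene's own spread between libraries. In wild type Abca13 ranged from 37.2 to 354 normalised counts, and Abcf2 from 3395 to 3853. The size of change was similar, at -0.65 for Abca13 and 0.66 for Abcf2 on the log2 scale. Adjusted p was 0.833 for Abca13 and 0.826 for Abcf2, by the authors' deposited table. Of 40 members tested in the authors' deposited table, 2 fell and 0 rose at an adjusted p under 0.05. Over all 21778 features tested, 3.70% were called lower and 3.15% higher, so a count of 2 lower and none higher is near that background. The members that fell, Abcg4 and Abca9, are both lipid transporter genes of low level. Each passed the minimum level through wild type alone, where it is high. In bulk samples, a fall can come from fewer cells that express a gene or from less RNA per cell, and these cannot be told apart.

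Abcg4 is a short transporter that exports sterols, known from brain and from megakaryocyte progenitors (chromosome 9, 44081273 to 44096327). It had 102, 100.5, 38.2 and 59.2 normalised counts in wild-type libraries 1 to 4 and 0.659 in the knockout arm. The wild-type pairs were themselves 2.08-fold apart, but all 4 libraries lay far above the knockout value. In reads, 296 in wild type stood against 2 in the knockout arm (4 times the authors' mean count), a ratio of 112 with an exact Poisson 95% interval of 30.7 to 927. Against the lower pair, libraries 3 and 4, the ratio was 73.9 (19.96 to 619). The authors' deposited table gives a 38.1-fold fall with an adjusted p of 0.000129.

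Markers of megakaryocytes were examined beside Abcg4. Of 8 measured, Gp5, Pf4 and Ppbp were called lower and none higher, against 3.70% and 3.15% of all features tested. The median for the list was -1.53 (log2, authors' deposited table). Their summed level was 41701 to 49114 normalised counts in the wild-type libraries and 66715 in the knockout arm, and none was at 0. Most of the knockout sum was Vwf, at 59985. Without Vwf, left out after the values were seen, the other 7 genes summed to 21954 to 25235 in wild type and 6730 in the knockout arm. Their part in the result for Abcg4 was not tested.

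Abca9, a little-studied lipid transporter of the chromosome 11 row (109962136 to 110029467), had 55.7, 37.7, 21.9 and 27.2 normalised counts in libraries 1 to 4 and 3.30 in the knockout arm. Libraries 1 and 2 lay above libraries 3 and 4, and all lay above the knockout value. The ratio of reads was 10.6 (5.62 to 22.7) over all libraries and 7.47 (3.75 to 16.5) against libraries 3 and 4. The authors' deposited table gives a fall of 7.48-fold (adjusted p 0.0314).

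Its low neighbours were not called. Abca8b had 21.0, 23.0, 11.4 and 4.70 normalised counts in wild type and 1.98 in the knockout arm, and Abca8a had 4.21, 1.05, 12.4 and 15.0 against 0.330. The authors' deposited table gives them adjusted p of 0.185 and 0.172. Abca6, at 22 reads in wild type and 15 in the knockout arm, had a ratio of 1.11 (0.549 to 2.29). Abca5, the expressed end of the row, had 1397, 1302, 1721 and 1642 normalised counts in wild type and 2406 in the knockout arm, a log2 fold change of 0.67 with an adjusted p of 0.824, by the authors' deposited table. The 9 stromal markers summed to 2324, 2210, 3266 and 3001 in libraries 1 to 4 and 1726 in the knockout arm. Between the library pairs these sums ran opposite to Abca9. Of the 6 measured, Cxcl12 and Lepr were called lower and none higher, against 3.70% of all features tested called lower. Col1a2 made up most of the knockout sum, at 1149 against 459 to 871 in wild type, and Lum was at 0 in the knockout arm and in libraries 1 and 2. The 9 macrophage markers summed to 11906, 11888, 12746 and 12773 in libraries 1 to 4 and 11062.5 in the knockout arm. Of these, C1qa, C1qb, C1qc and Emr1 were called lower and none higher. The 4 called were higher in libraries 1 and 2 than in libraries 3 and 4, as Abca9 was. Lyz2, which made up most of the sums, went the other way. The part of either list in the fall of Abca9 was not tested.

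Abcg2 itself was not called. It had 4030.4, 4203, 6061 and 6063 normalised counts in libraries 1 to 4 and 5407 in the knockout arm, which lies between the library pairs (chromosome 6, 58546666 to 58642445). The authors' deposited table gives a log2 fold change of 0.09 (adjusted p 0.997), and it was -0.24 with scaling by total counts. Both arms were gated on dye efflux before the RNA was made. The closest relative in the group, Abcg3, was at 0.24 on the log2 scale (adjusted p 0.968), and the sterol exporter Abcg1 at -0.27 (0.961), by the authors' deposited table.

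Among the multidrug genes of subfamily B, Abcb1a had the largest positive log2 fold change of the measured members. It stood at 780.4, 788, 1225 and 1293 normalised counts in wild type and 2839 in the knockout arm. Libraries 3 and 4 were 1.61-fold above libraries 1 and 2, and the knockout value was above all 4. The log2 fold change was 1.47 with an adjusted p of 0.377, by the authors' deposited table, so it was not called. Its twin Abcb1b had 3429, 3289, 3591 and 3521 in wild type and 5127 in the knockout arm (log2 fold change 0.57, adjusted p 0.863, by the authors' deposited table). The phospholipid pump Abcb4, beside them, lay on the other side, at 1663, 1771, 1376 and 1382 in wild type and 499 in the knockout arm. Its log2 fold change was -1.63 with an adjusted p of 0.298, by the authors' deposited table.

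Mitochondrial genes of subfamily B, Abcb8, Abcb6 and Abcb10, had negative log2 fold changes, none of them called. Abcb8, of the inner mitochondrial membrane (chromosome 5, 23899974 to 23915765), had 2138, 2210, 2179 and 2080.1 normalised counts in wild type and 1055 in the knockout arm. Its log2 fold change was -1.03 (adjusted p 0.631), by the authors' deposited table. Abcb6, linked to porphyrin transport, was at -0.75 (adjusted p 0.783) and Abcb10, which serves haem synthesis in red cell precursors, at -0.31 (0.946), again by the authors' deposited table. Abcb9, a lysosomal peptide transporter, was at -0.52 (0.888) by the authors' deposited table. For these 4 genes the knockout value lay below every wild-type library, as it did for 18 of the 34 measured members. It lay above all 4 libraries for 9 others. The same shares over all features were not taken, so these counts are not a result about the family.

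Iron-sulphur and haem partners of these exporters were not called either. Of 12 measured, 0 passed, and the median of their log2 fold changes was 0.04 by the authors' deposited table. The 10 erythroid markers summed to 4958 to 7071 normalised counts in wild type and 664 in the knockout arm, and none was at 0. Of these 10, 5 were called lower and none higher, against 3.70% and 3.15% of all features tested. Their part in the values of Abcb8, Abcb6 and Abcb10 was not tested.

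The 6 measured genes of subfamily C, the conjugate and drug exporters, lay within 1 log2 unit of 0 and none was called. Abcc1 had 10742, 10847, 10782 and 10304 normalised counts in wild type and 8663 in the knockout arm, a log2 fold change of -0.30 (adjusted p 0.951), by the authors' deposited table. Abcc3, an exporter of glucuronides (chromosome 11, 94204609 to 94254290), was at 289, 271, 302 and 293 in wild type and 530.0 in the knockout arm. Its log2 fold change was 0.87 (adjusted p 0.714), by the authors' deposited table. Abcc4, an exporter of cyclic nucleotides and prostaglandins, was at -0.44 (0.912) by the authors' deposited table. Abcc5, another exporter of cyclic nucleotides, was at 0.17 (0.983), and Abcc2, an exporter of bilirubin conjugates with 25.2, 23.0, 6.68 and 4.70 normalised counts in wild type and 17.5 in the knockout arm, at 0.20 (0.987), on the log2 scale of the authors' deposited table.

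In subfamily D no gene was called. Abcd2, a peroxisomal importer of very long chain fatty acids (chromosome 15, 90976302 to 91022238), was at -1.94 on the log2 scale, at 167, 171, 114 and 142 normalised counts in wild type and 37.6 in the knockout arm (adjusted p 0.188 by the authors' deposited table). The peroxisomal Abcd3 and the lysosomal cobalamin transporter Abcd4 were at -0.09 and -0.21 on the log2 scale of the authors' deposited table.

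None of the 4 translation factors was called. Abce1 was at 11231, 10937, 12048 and 11810.2 normalised counts in wild type and 9426 in the knockout arm. Abcf1 was at 8168, 8590.3, 8267 and 8136 against 8355. Abcf2 was at 3853, 3729, 3445 and 3395 against 5704, and Abcf3 at 2653, 2667, 2851 and 2897 against 4217. The authors' deposited table lists log2 fold changes of -0.29, 0.01, 0.66 and 0.61 in that order, with adjusted p of 0.826 or more. None of their 6 measured partner genes, among them the release factor Etf1 and the rescue factor Pelo, was called.

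In subfamily A the well expressed lipid transporters were not called either. Abca2 was at -0.15 on the log2 scale (adjusted p 0.986) and Abca1, the main cholesterol exporter, at -0.32 (0.946), by the authors' deposited table. Abca3, the surfactant lipid transporter of lung, was at -0.12 (0.993) by the authors' deposited table. Its span shares 1.24% of its length with an antisense feature whose reads cannot be told apart from its own here. Abca4, known from photoreceptors, stood at 1624, 1481, 1818 and 1820.0 normalised counts in wild type and 3247 in the knockout arm, with 0.94 and an adjusted p of 0.675, by the authors' deposited table. Of 13 measured genes of sterol handling and its receptor LXR, none was called, with a median log2 fold change of 0.61, by the authors' deposited table. Values lay on both sides of 0, with the lipoprotein receptor gene Scarb1 at -0.78 on the log2 scale of the authors' deposited table. Nr1h2, which encodes the more abundant LXR form here, averaged 3653 and 2407 in the wild-type pairs and 9558 in the knockout arm (adjusted p 0.284 by the authors' deposited table).

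Over the whole family the log2 fold changes were centred a little below 0. The median of the 34 measured members was -0.18, and that of 17684 measured features was -0.04, by the authors' deposited table. Of the 34, 20 were negative and 14 positive (58.8% negative against 51.7% of all measured features), and 27 lay within 1 log2 unit of 0. With scaling by total counts, which lowers the ratios by a median of 0.34 log2 units, 25 of the 34 were negative (73.5% against 65.1% of all). The smallest absolute log2 fold change that the authors' deposited table calls among measured features was 2.51, and all uncalled members lay below that size except Abca8a, which did not reach the minimum level.

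**Figure D3:**
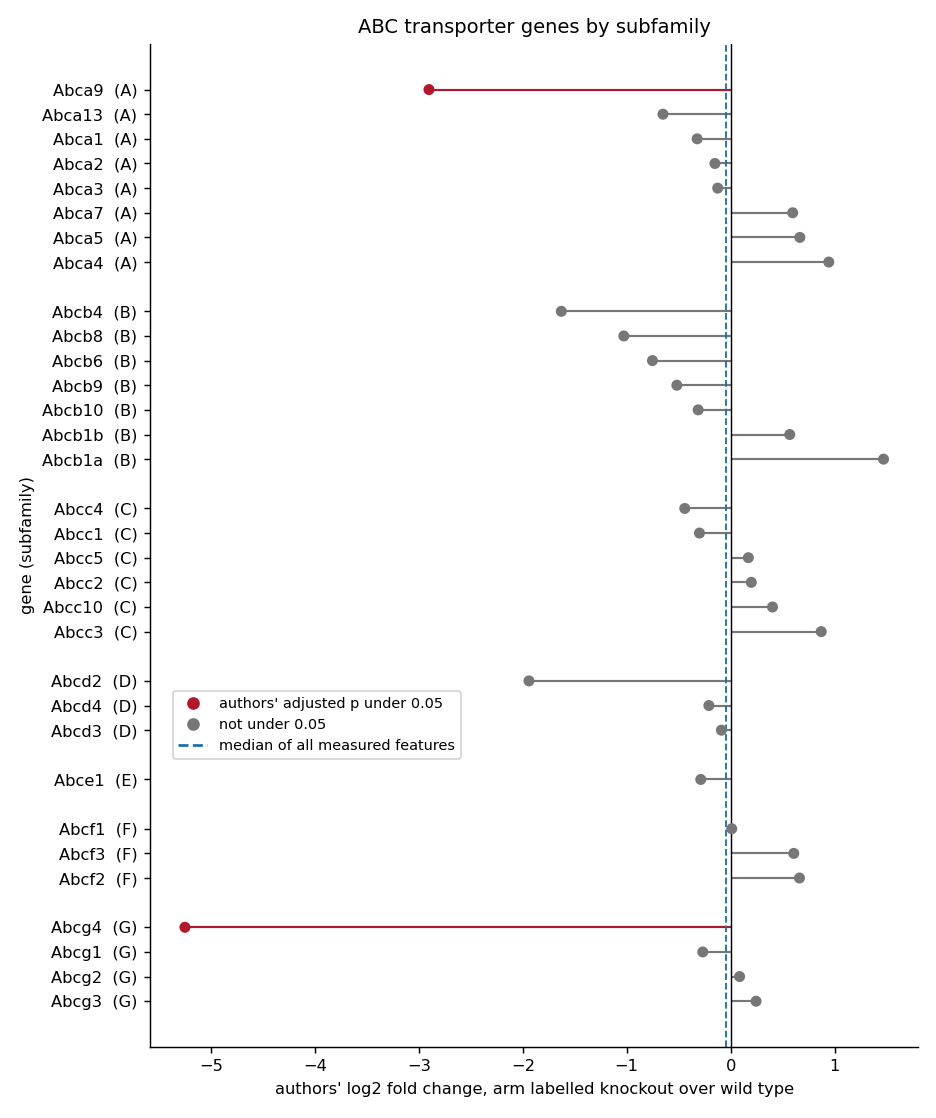
Authors' deposited log2 fold change, arm labelled knockout over wild type, for 32 of the 34 measured ABC transporter genes, ordered within subfamilies A to G. Red marks the 2 genes with an adjusted p under 0.05, Abcg4 at -5.25 and Abca9 at -2.90, and the dashed line is the median of all measured features at -0.04.

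The wild-type library pairs differed more for some members than the arms did. Of 31 members with a mean of at least 100 normalised counts, 3 were at least 2-fold lower in libraries 3 and 4 than in libraries 1 and 2, and 0 were 2-fold higher. Over 13089 features at that level, 4.52% were lower and 1.60% higher by that measure. A further 27 of the 31 were within 1.5-fold. Within pairs, the largest fold over the 31 members was 1.33 between libraries 1 and 2 and 1.29 between libraries 3 and 4. The pairs are not labelled groups, so no test was run, and no label says what separates them.

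Abca13, the longest member of the family (chromosome 11, 9091945 to 9584262), had 324, 354, 37.2 and 47.9 normalised counts in libraries 1 to 4, a 7.96-fold difference between the pairs. The knockout value of 121 fell between them. Its level moved with that of neutrophil markers: the 8 markers summed to 48737 and 47941 in libraries 1 and 2, then to 10031 and 9963 in libraries 3 and 4, against 29340 in the knockout arm, with none at 0. Their part in the result for Abca13 was not tested.

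Abca7, a phospholipid transporter of leukocytes and brain (chromosome 10, 79460360 to 79478317), had 8984, 9007, 3917 and 3981, a 2.28-fold difference. The knockout value of 9778 was above all 4 libraries. Abcc10, a drug exporter (chromosome 17, 46440179 to 46464972), had 1119, 1113, 409 and 435, a 2.64-fold difference, with the knockout value of 1015 between the pairs. Its span shares 42 bases with Dlk2 on the opposite strand, and this library kit does not mark strand. Against libraries 3 and 4 alone, the log2 fold change of the knockout arm was 1.31 for Abca7 and 1.27 for Abcc10, and against libraries 1 and 2 alone 0.12 and -0.14.

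**Figure D4:**
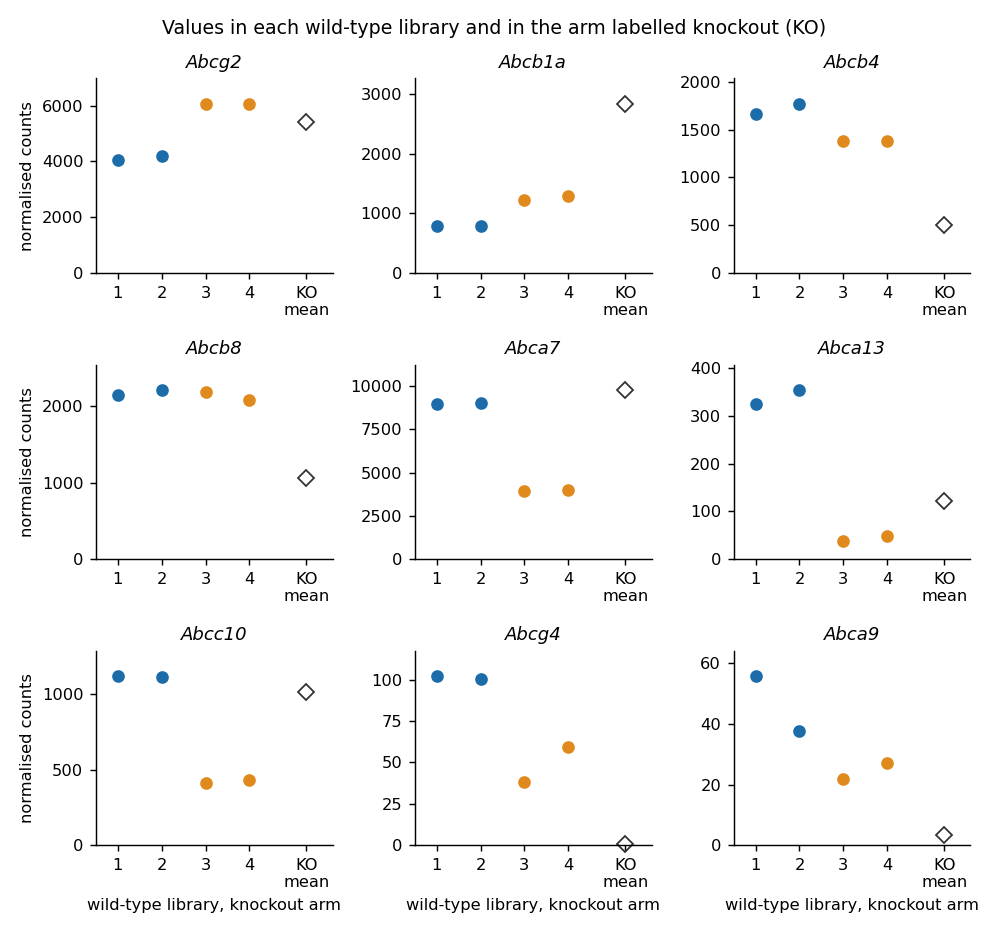
Normalised counts of 9 ABC transporter genes in wild-type libraries 1 to 4 (filled points, libraries 1 and 2 in blue, 3 and 4 in orange) and in the arm labelled knockout (open diamond, the authors' mean on the wild-type scale), each panel with its own axis from 0. Abca7, Abca13 and Abcc10 differ mainly between the library pairs. For Abcg4 and Abca9 all 4 libraries lie above the knockout value, as they do for Abcb4 and Abcb8, which were not called. The knockout value lay below all 4 libraries for 18 of the 34 measured members and above all 4 for 9. The same shares over all features were not taken, so these counts are not a result about the family.

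Genes near the family but outside its naming rule were measured beside it. Tap1 and Tap2, short transporters that load peptides for antigen presentation, reached 3825 and 3669 normalised counts per kb in wild type, above the highest member by that measure. Their log2 fold changes were -0.22 and 0.06 (adjusted p 0.973 and 1), by the authors' deposited table. None of the 11 peptide loading genes was called. Cftr, a chloride channel of subfamily C, had 148, 112, 224 and 180.3 normalised counts in wild type and 40.5 in the knockout arm, with an adjusted p of 0.167, by the authors' deposited table.

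Solute carriers that take up or export drugs had calls in both directions. Of 6 measured, 1 rose and 1 fell, by the authors' deposited table. Over all features tested, 3.15% were called higher and 3.70% lower, and a list of 6 is too small to set against those shares. The organic cation transporter Slc22a3 (chromosome 17, 12612840 to 12700570) had 9852, 9822, 7104 and 6971 normalised counts in wild type and 735 in the knockout arm, an 11.5-fold fall (adjusted p 0.00335 by the authors' deposited table). The organic anion transporter Slco4a1 (chromosome 2, 180195683 to 180209557) had 2271, 2376, 1324 and 1307 against 16453, a 9.04-fold rise (adjusted p 0.00902 by the authors' deposited table). Among 10 measured regulators of drug pumps none was called, and their median was 0.02 on the log2 scale of the authors' deposited table. By that authors' deposited table the values ran from -1.54 for the xenobiotic receptor gene Nr1i3 (adjusted p 0.416) to 1.73 for the hypoxia factor gene Epas1 (0.254), with Nfe2l2, the regulator of the oxidative stress response, at 1.48 (0.371) and Keap1, its inhibitor, at -0.69 (0.810).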

How the data were processed

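Per the labels, sorted cells gave RNA by a Qiagen column kit, and TruSeq RNA libraries were made from it by way of polyA selection. That kit is taken as one that does not mark strand. Whole-number read counts per feature were deposited by the authors for each wild-type library. Aligner, counter and gene models were not named (not given in the sources used here). Per the submitters' processing notes the build was mm9, and DESeq is named without a version or role. A length-scaled signal, also deposited by the authors, is the count divided by exon length in kb and by 50, and served only for exon lengths. Log2 fold changes and p-values were deposited by the authors, and the p-values are read as adjusted, since many features share a value.

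Size factors by the median of ratios were applied to the counts. The authors' knockout mean was put on that scale with a log2 offset of 0.40 (SD 0.00298 over 11936 features). Knockout reads of low genes were taken as 4 times the deposited mean, for the 4 libraries named in the header, and their ratios to wild type carry exact Poisson intervals. Of the 30 columns, 8 per-library columns match no sample here and were not used, so no test between the arms was run and each call is taken from the authors' deposited table. Scripts were tested on simulated data with known answers, using Python 3.11.15, pandas 2.3.3, numpy 2.4.6, scipy 1.17.1 and matplotlib 3.10.9.

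The members and lists were chosen with earlier results of these data known. Named members were Abcg2, those called, the 10 highest per kb, the 6 largest and 6 smallest fold changes at a mean of at least 50, and those 2-fold apart between library pairs. Some genes that these rules or lists hold are not reported here. Further genes were picked for naming with their values in view. Lists covered peptide loading, sterol and LXR genes, mitochondrial iron and haem partners, translation partners, drug pump regulators, channel partners of Abcc8 and Abcc9 (1 of 2 measured, not called) and drug solute carriers, beside marker lists. Of the marker lists not given in the report, 3 of 6 lymphoid and 4 of 5 mast cell markers measured were called lower and none higher. Of 7 endothelial markers, 1 was called higher and none lower. Over all features tested, 3.70% were called lower and 3.15% higher. Promoter letters come from RefSeq and were matched by symbol, and for 42 of 45 windows the bases after the start stood in a GENCODE vM21 transcript of that gene.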

Additional observations from a re-analysis of the deposited data

How the results depend on the processing

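No paired analysis was possible because the labels give 1 group of samples. The number of measured members, 34, ran from 31 at a minimum of 50 normalised counts to 36 with a minimum on wild type alone, and from 34 to 35 without single libraries. With a threshold of 0.01 on the p of the authors' deposited table, Abcg4 alone (1 gene) was lower, and 0.1 added none. The median log2 fold change of -0.18 was -0.13 against libraries 3 and 4 alone, -0.24 with no minimum level and also with a minimum on wild type alone, and -0.52 with total count scaling. Without single libraries it ran from -0.23 to -0.15. The median log2 difference between the library pairs, 0.003, was -0.066 with total count scaling, 0.046 for library 3 over library 1, -0.038 for library 4 over library 2 and 0.076 at a minimum of 100 normalised counts, and it ran from -0.02 to 0.03 without single libraries, so it had no stable sign. At a minimum of 10, 6 members rather than 3 differed 2-fold or more between pairs. Abcg2 ranked 4 in the family per kb (5 in libraries 1 and 2, 3 in libraries 3 and 4) and 7 by counts not divided by length, and its level of 2056 per kb ran from 1925 to 2199 without single libraries. Of the 24 named members, Abcf1, Abcg2 and Abcg3 changed sign with total count scaling, Abcc10 and Abcf1 against libraries 1 and 2 alone, Abca13, Abca2 and Abcg2 against libraries 3 and 4 alone, and Abcg2 without library 1. None of these was called in the authors' deposited table. Abca9 lost its call at the 0.01 threshold, and both Abca9 and Abcg4 fall under a minimum of 50 normalised counts. Depth limits the statements on genes of a few reads, whose ratios carry counting intervals only, and with 1 biological replicate of wild type the spread between mice is not known.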
